A study of Mus musculus with 12 samples.

Results

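The genes described here encode Fcer1g, Tyrobp, Lat2 and Syk, signalling proteins that work behind Fc receptors and natural killer (NK) cell receptors. They were taken as every probe set whose platform annotation names one of the 4 genes, older symbols of Lat2 included. This gave 4 of 8251 genes and 7 of 12422 probe sets, 2 each for Fcer1g, Lat2 and Syk and 1 for Tyrobp. The genes were proposed with the results of these samples in view, in all 3 comparisons made here. Their levels and differences are therefore given as a description, with no test.

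Thymocytes were grown in RTOC, a culture in which dissociated thymic cells are reaggregated with thymic stroma, and total RNA was measured on 12 Affymetrix mouse arrays at day 6. The group called HY_high held thymocytes with the HY T cell receptor, a class I restricted transgenic receptor for a male peptide, with Smcy peptide at 1e-05 M. HY_low held the same receptor with Smcy peptide at 1e-07 M. OT1 held thymocytes with the OT1 receptor, a class I restricted transgenic receptor for an ovalbumin peptide, and no peptide is named for it. Each group has 4 arrays, numbered 1 to 4. The labels do not give the age or sex of the mice, whether cells were sorted, or whether arrays came from separate cultures, so every error and p-value here reflects how much arrays vary, which may be technical. Titles of HY_high samples carry the letters aa and those of HY_low ab, which are not explained, so dose cannot be told apart from what the letters mark.

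Fcer1g and Tyrobp (also called DAP12) are small transmembrane chains with almost no extracellular part. Each carries an ITAM, a pair of spaced tyrosines that is phosphorylated when a partner receptor binds its ligand. Syk, a cytoplasmic tyrosine kinase, docks on the phosphorylated ITAM through its tandem SH2 domains. Lat2 (also called NTAL or LAB) is a transmembrane adaptor without an ITAM that is phosphorylated downstream and gathers further signalling proteins. In conventional T cells the CD3 and zeta chains, the kinase Zap70 and the adaptor Lat fill the corresponding places, while Fcer1g, Tyrobp and Lat2 are best known from NK, myeloid, mast and B cells.

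Promoter windows of 300 bases, lying mostly upstream of a start site, were matched in RefSeq (build GRCm38.p6) for Fcer1g and Syk, 2 of the 4 genes. They are shown 5′ to 3′ on the gene's own strand. A window of Klrb1a, the receptor gene discussed further on, is added. Capitals mark the Ets core GGAA or its reverse complement TTCC and the Runx core TGTGGT or its reverse complement ACCACA. No other letters are capitals.
Fcer1g, chr1:171234300-171234599, minus strand: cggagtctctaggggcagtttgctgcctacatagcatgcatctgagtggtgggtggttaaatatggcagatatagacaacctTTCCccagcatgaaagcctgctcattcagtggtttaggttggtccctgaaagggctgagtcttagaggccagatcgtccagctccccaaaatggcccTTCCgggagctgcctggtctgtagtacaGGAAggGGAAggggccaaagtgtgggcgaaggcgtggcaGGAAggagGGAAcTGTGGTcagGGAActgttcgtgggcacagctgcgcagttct
Klrb1a, chr6:128622885-128623184, minus strand: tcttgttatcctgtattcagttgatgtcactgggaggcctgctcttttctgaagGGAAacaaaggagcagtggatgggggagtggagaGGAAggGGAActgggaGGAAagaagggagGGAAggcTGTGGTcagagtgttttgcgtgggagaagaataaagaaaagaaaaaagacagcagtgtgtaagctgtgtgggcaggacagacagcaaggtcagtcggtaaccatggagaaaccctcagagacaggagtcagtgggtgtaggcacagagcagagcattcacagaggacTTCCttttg
Syk, chr13:52583187-52583486, plus strand: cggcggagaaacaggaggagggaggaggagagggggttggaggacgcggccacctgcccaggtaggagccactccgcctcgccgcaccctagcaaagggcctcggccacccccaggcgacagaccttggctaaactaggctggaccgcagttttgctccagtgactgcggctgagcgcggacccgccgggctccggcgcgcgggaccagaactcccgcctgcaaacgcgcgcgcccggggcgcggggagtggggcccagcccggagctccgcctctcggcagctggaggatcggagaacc

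The Fcer1g window held 7 matches to GGAA and 1 to TGTGGT, and the Klrb1a window held 6 and 1. The Syk window printed held 0 and 0, and the window at its other listed start site held 3 and 0. Over 32851 promoter windows, 96.0% held GGAA on either strand, with a median of 3 matches, and 16.8% held TGTGGT on either strand. No match to TATAAA, which 13.6% of all windows hold, or to GGGCGG, which 35.7% hold, was found in these 4 windows. Both strands were read. These are matches of letters only, and their part in the differences between the groups was not tested.

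Deposited intensities have a lowest value of 1, which 15.3% of all values take, and medians of 3.33 to 3.97 per array. The share at the lowest value was 8.8%, 3.0%, 22.46% and 21.26% on HY_high arrays 1 to 4. It was 5.18% to 22.43% in HY_low and 8.5% to 21.28% in OT1. The highest value of any probe set described here was 38.48, at the 88.5th percentile of its array. Syk on 100425_at lay between the 56.7th and the 78.7th percentile on all arrays. Tests were run on probe sets with a mean (of log2 values) above an intensity of 1.76, the 30th percentile over all probe sets, and 5 of the 7 passed. The dimmer Fcer1g probe set (mean 1.61) and a Syk probe set that read the lowest value, 1, on 12 of 12 arrays did not. The brighter Fcer1g probe set (mean 2.35) passed through its level in HY_high, since its means in the other groups lay below the limit. As arrays measure RNA of a whole sample, more cells with a transcript and more of it per cell cannot be told apart.

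**Figure D1:**
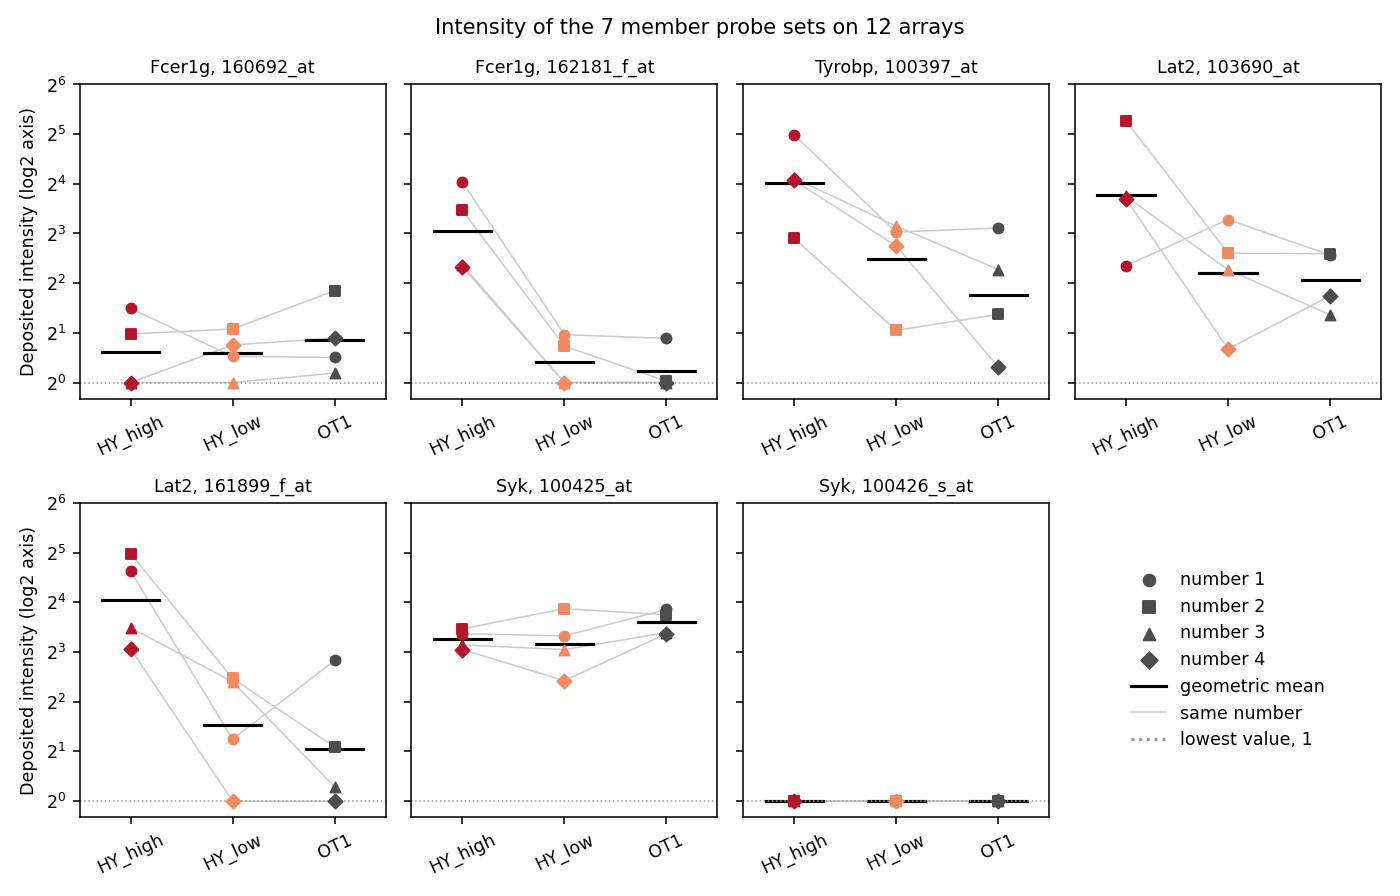
Deposited intensity (log2 axis) of each of the 7 probe sets in HY_high, HY_low and OT1, with 1 point per array, shapes and grey lines for the array number, and black bars for geometric means (n = 4 per group). Fcer1g on 162181_f_at and Lat2 on 161899_f_at are higher on every HY_high array than on any other array, Tyrobp overlaps between groups but not within numbers, and Syk on 100425_at stays between 5.37 and 14.66.

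Fcer1g, the ITAM chain of Fc receptors and of several NK receptors, was higher in HY_high on 1 of its 2 probe sets. On the brighter one (162181_f_at) it was at 16.36, 11.04, 5.17 and 5.02 on HY_high arrays 1 to 4, against 1.95, 1.66, 1 and 1 in HY_low and 1.85, 1.02, 1 and 1 in OT1. The HY_high arrays did not overlap with either other group, and HY_low and OT1 lay at or near the lowest value on all their arrays. The geometric mean was 8.27 in HY_high, 1.34 in HY_low and 1.17 in OT1. The log2 difference was 2.62 ± 0.49 (SE, n = 4 per group) for HY_high minus HY_low and 2.82 ± 0.49 for HY_high minus OT1. Between HY_low and OT1 it was 0.19 ± 0.49.

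Within the array numbers, HY_high exceeded HY_low by 2.33 to 3.07 on the log2 scale and OT1 by 2.33 to 3.44. On each HY_high array these intensities stood between the 55.5th and the 79.8th percentile of all probe sets, against the 11.1th to 35.5th in HY_low and the 10.4th to 34.7th in OT1. Since the other groups are at the bottom of the scale, the fold depends on how dim values are treated. With intensities under 8 set to 8, the difference of HY_high minus HY_low was 0.37.

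The other Fcer1g probe set (160692_at) did not show this pattern. It read 2.81, 1.97, 1 and 1 in HY_high, 1.44, 2.11, 1 and 1.69 in HY_low, and 1.42, 3.6, 1.14 and 1.86 in OT1. Its log2 difference was 0.03 ± 0.43 for HY_high minus HY_low and -0.24 ± 0.43 for HY_high minus OT1. All 12 values lie below 4, near the lowest value, too low to show or bound a difference. The suffix _f_at marks, in the maker's naming, probe sets that may also read similar sequences. Over the 763 tested probe sets with that suffix, the median log2 difference of HY_high minus HY_low was -0.08, and 0.786% were higher in HY_high without overlap, against 1.29% of the other 7932.

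Tyrobp, the ITAM chain of activating NK receptors and of myeloid receptors, was also highest in HY_high. Its single probe set read 31.67, 7.47, 17.31 and 16.78 on HY_high arrays 1 to 4, against 8.16, 2.07, 8.87 and 6.72 in HY_low and 8.64, 2.59, 4.84 and 1.24 in OT1. The groups overlapped only through HY_high array 2, which was below HY_low arrays 1 and 3 and OT1 array 1 but above both other arrays numbered 2. Geometric means were 16.2 in HY_high, 5.63 in HY_low and 3.40 in OT1. The log2 difference was 1.52 ± 0.64 for HY_high minus HY_low, with 0.96 to 1.96 within the 4 numbers. For HY_high minus OT1 it was 2.25 ± 0.64, with 1.53 to 3.76 within the numbers.

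HY_low and OT1 differed less in Tyrobp, by 0.73 ± 0.64. HY_low was the higher within 2 of 4 numbers and the lower within the other two, from -0.32 to 2.44. The upper end comes from number 4, where OT1 read 1.24. With a floor of 8 the Tyrobp difference of HY_high minus OT1 was 1.01.

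Lat2, the transmembrane adaptor phosphorylated downstream of Syk family and Src family kinases, was higher in HY_high on both of its probe sets, more clearly on one. On 161899_f_at it read 24.8, 31.61, 11.24 and 8.36 in HY_high, against 2.37, 5.54, 5.29 and 1 in HY_low and 7.13, 2.13, 1.22 and 1 in OT1. HY_high did not overlap with either group, though its lowest array, at 8.36, was close to OT1 array 1, at 7.13. This probe set, too, carries the suffix _f_at. The geometric means were 16.5 in HY_high, 2.89 in HY_low and 2.07 in OT1. The log2 differences were 2.51 ± 0.69 for HY_high minus HY_low and 2.99 ± 0.69 for HY_high minus OT1, and HY_high was higher within 4 of 4 numbers in each.

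On 103690_at, the probe set with the higher mean over all arrays, Lat2 read 5.1, 38.48, 13.41 and 12.94 in HY_high. HY_low had 9.72, 6.08, 4.82 and 1.6, and OT1 had 5.92, 6.03, 2.57 and 3.35. Here HY_high array 1 lay within the range of HY_low and of OT1, and the other 3 HY_high arrays lay above all arrays of both groups. The log2 differences were 1.56 ± 0.64 and 1.70 ± 0.64 for HY_high minus HY_low and minus OT1, with values within number 1 of -0.93 and -0.22. The 2 probe sets thus disagree about array 1, where 161899_f_at read 24.8. Between HY_low and OT1 the differences were 0.14 ± 0.64 on 103690_at and 0.48 ± 0.69 on 161899_f_at, with both signs among the numbers.

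Syk, the kinase that binds phosphorylated ITAMs, did not follow the adaptors. On 100425_at it read 10.34, 11.08, 8.84 and 8.29 in HY_high, against 10.02, 14.66, 8.29 and 5.37 in HY_low and 14.5, 13.48, 10.5 and 10.34 in OT1. All groups overlapped. Geometric means were 9.57 in HY_high, 8.99 in HY_low and 12.1 in OT1. The log2 difference of HY_high minus HY_low was 0.09 ± 0.42, and that of HY_high minus OT1 was -0.33 ± 0.42. Within the numbers HY_high was below OT1 4 of 4 times, by 0.25 to 0.49 on the log2 scale, which 8.74% of all tested probe sets were as well. Its other probe set (100426_s_at), listed at 1 throughout, gives no value.

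**Figure D2:**
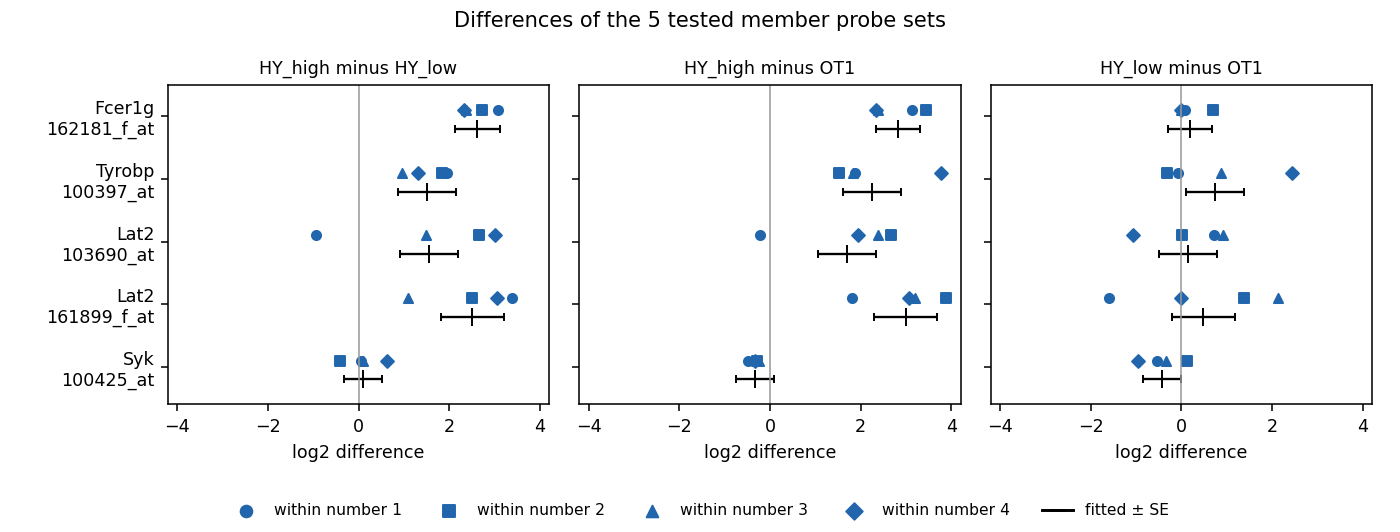
Log2 differences of the 5 tested probe sets for HY_high minus HY_low, HY_high minus OT1 and HY_low minus OT1, with blue symbols for the difference within each array number and black bars for the fitted difference ± SE (n = 4 per group). Fcer1g, Tyrobp and Lat2 lie above 0 in both comparisons with HY_high except Lat2 on 103690_at within number 1, and Syk lies near 0.

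Of the 5 tested probe sets, 2 were higher in HY_high than in HY_low without overlap, where 1.24% of all 8695 tested were. The count was also 2 for HY_high against OT1, with 1.52% of all tested, and 0 for HY_low against OT1, with 0.886%. In both comparisons with HY_high these were Fcer1g on 162181_f_at and Lat2 on 161899_f_at. Their suffix _f_at marks probe sets that may also read similar sequences. On the other probe set of each of these genes the groups overlapped. HY_high exceeded HY_low within 4 of 4 numbers for 3 of the 5, against 9.81% of all tested, and exceeded OT1 in the same way for 3, against 10.4%. The genes were chosen from these comparisons, so nothing is read from these counts, and both comparisons with HY_high use the same HY_high arrays. Leaving out any 1 of the 12 arrays gave differences of HY_high minus HY_low between 2.30 and 2.87 for Fcer1g, 1.04 and 1.90 for Tyrobp, and 1.05 and 2.03 for Lat2 on 103690_at.

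Over the 12 arrays the log2 intensities of Fcer1g (162181_f_at) and Lat2 (161899_f_at) had a Pearson correlation of 0.89, and those of Fcer1g and Tyrobp 0.70. With the mean of each array number removed the correlations were 0.91 and 0.82. For Tyrobp and Lat2 on 161899_f_at they were 0.64 and 0.81. The 2 Lat2 probe sets correlated at 0.75. With Lat2 on 103690_at they were lower, at 0.31 and 0.56 for Tyrobp and 0.67 and 0.70 for Fcer1g. Syk had 0.04 with Fcer1g, -0.35 with Tyrobp, 0.29 with Lat2 on 103690_at and 0.23 with Lat2 on 161899_f_at, and -0.26, -0.55, -0.07 and -0.17 with number means removed. These are descriptions over 12 arrays that share groups, numbers and, at the dim end, the lowest value.

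Among 7717 other tested probe sets with 1 gene, those most like Fcer1g over the 12 arrays were Casp1 (r = 0.93), Klrb1a (0.92), Lat2 (0.89), Adig (0.88) and Cd244a (0.88). Casp1 encodes an inflammatory caspase, Klrb1a a lectin-like NK receptor and Cd244a an NK receptor of the SLAM family. With number means removed, Pglyrp1 (0.98), Casp1 (0.96), Klrb1a (0.96), Haus3 (0.95) and Stx6 (0.95) came first. Pglyrp1, a peptidoglycan recognition protein, had geometric means of 6.57 in HY_high, 1.90 in HY_low and 1.69 in OT1.

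Those most like Tyrobp were H2-D1 (r = 0.91), Sh3d19 (0.84), Lst1 (0.83), Cyp4v3 (0.82) and Usp18 (0.82). H2-D1, a class I molecule, had geometric means of 936 in HY_high, 630 in HY_low and 350 in OT1. For Usp18, an interferon-induced protease, they were 90.6 in HY_high, 51.4 in HY_low and 9.37 in OT1. After removal of number means the closest were Rgs16 (0.95), Il10rb (0.94), Crtam (0.94), Inpp5b (0.93) and Sec23ip (0.93). Crtam, a surface receptor of activated cytotoxic cells, had means of 11.0 in HY_high, 3.71 in HY_low and 1.47 in OT1.

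For Lat2 (103690_at) the closest were Gbp3 (r = 0.85), Hhex (0.84), Gabarapl1 (0.83), Dnajc9 (0.82) and Aard (0.82). With number means removed they were Mgmt (0.95), Mfsd14b (0.95), Dlg1 (0.95), Cul4a (0.94) and Arfgef1 (0.94), with no gene in both lists. For Syk they were Pde6a (0.87), Ldb2 (0.85), Upk2 (0.83), Cldn3 (0.83) and Arnt (0.83), all with means under 7 in every group. With number means removed they were Clns1a (0.88), Eda (0.87), Rcan3 (0.87), Cldn3 (0.87) and Nfu1 (0.87).

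Receptors that signal through Fcer1g were represented by 8 of 15 genes listed, of which 4 were dim enough to miss the filter and 4 were tested. Klrb1a was the one called. It read 12.74, 7, 7.31 and 17.05 in HY_high, against 2.05, 1.73, 1 and 1.38 in HY_low and 1.93, 1.03, 1 and 1.11 in OT1, without overlap. By limma its log2 difference was 2.79 ± 0.46 for HY_high minus HY_low (adjusted p = 0.0487, or 0.00678 with the array number as a block) and 3.07 ± 0.46 for HY_high minus OT1 (adjusted p = 0.0058). In these comparisons 0.023% and 0.173% of all tested probe sets passed, or 0.345% and 1.36% with the block, in either direction. For HY_low minus OT1, where no listed receptor passed, 0.023% did, or 0.092% with the block.

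Klrb1a passed the filter only through its level in HY_high, since its geometric means of 1.49 in HY_low and 1.22 in OT1 lie below 1.76, so these calls are no support for a difference of the list. With no filter its adjusted p by limma was 0.0672 for HY_high minus HY_low and 0.0191 for HY_high minus OT1. The call against HY_low was also lost without any 1 of the 4 HY_high arrays, HY_low arrays 2, 3 and 4, and OT1 arrays 3 and 4, with adjusted p from 0.0645 to 0.254. With a floor of 8 the difference was 0.44 (adjusted p = 1). Fcgr3, the low affinity IgG receptor chain, had geometric means of 2.77 in HY_high, 2.03 in HY_low and 2.69 in OT1. Fcgr1, the high affinity IgG receptor, had 2.52, 3.11 and 3.08 in the same order. Ms4a2, the beta chain of the mast cell IgE receptor, had 2.14, 1.55 and 2.40, and its alpha chain Fcer1a had 1.22, 1.18 and 1.09 and was not tested. None of these 3 tested receptors passed in any comparison (limma adjusted p = 1), and their groups overlapped.

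Of 14 receptors that signal through Tyrobp, 2 were on the array under 1 symbol and both were tested. Klrd1 (CD94), the common partner chain of NKG2 receptors, read 91.5, 220.62, 239.83 and 317.21 in HY_high, against 66.26, 8.75, 51.28 and 113.59 in HY_low and 43.39, 126.07, 206.59 and 88.44 in OT1. Its log2 difference of 2.21 ± 0.68 for HY_high minus HY_low did not pass (adjusted p by limma 1 without the block and 0.0958 with it), and HY_high was higher within 4 of 4 numbers. Klrk1 (NKG2D), a receptor for stress ligands, had geometric means of 5.51 in HY_high, 1.91 in HY_low and 1.97 in OT1. Its differences of 1.53 ± 0.54 and 1.48 ± 0.54 did not pass either (adjusted p = 1 and 0.835).

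The 6 other ITAM chains were all tested and 0 passed in any comparison, with the block or without, and without the block 0 had an unadjusted p under 0.05 by limma. With the block Cd79b had an unadjusted p of 0.0449 for HY_high minus HY_low and 0.0163 for HY_high minus OT1. Without the block, 2.96% of all tested probe sets had an unadjusted p under 0.05 for HY_high minus HY_low. It was 2.65% for HY_low minus OT1 and 4.08% for HY_high minus OT1. The shares with the block are not given, so the Cd79b values have no background here. The median log2 difference of the 6 chains was -0.24 for HY_high minus HY_low, where all tested probe sets had 0.01. For HY_high minus OT1 it was 0.19, against 0.02. The CD3 chain Cd3e had 67.53, 67.01, 46.21 and 25.48 in HY_high, against 69.81, 67.47, 71.08 and 31.88 in HY_low and 30.61, 65.6, 49.72 and 29.83 in OT1. The zeta chain Cd247 had geometric means of 9.47 in HY_high, 12 in HY_low and 12.9 in OT1. Of the B cell receptor chains, Cd79b had 22.3 in HY_high, 12.9 in HY_low and 11.4 in OT1, and Cd79a was dim, at 2.03, 3.27 and 2.40 in that order.

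Among 33 kinases and signalling proteins around Syk, 25 were on the array under 1 symbol and 22 were tested. None passed by limma in any comparison, with the block or without. At an unadjusted p under 0.05, 2 were higher for HY_high minus HY_low, 1 for HY_high minus OT1 and 1 for HY_low minus OT1, and 0 were lower. Unadjusted p under 0.05 with a higher value was found for 1.9%, 2.82% and 1.55% of all tested probe sets in the same order. The list's median difference was 0.28, 0.21 and 0.15, against 0.01, 0.02 and 0.01 over all tested.

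Plcg2, the phospholipase C of B, NK and myeloid cells, was one of the 2 lowest in p. It read 7.71, 4.71, 3.88 and 6.18 in HY_high, against 1.97, 1.67, 2.7 and 3.35 in HY_low and 6.35, 3.28, 2.94 and 2.76 in OT1, and HY_high and HY_low did not overlap. Its log2 difference was 1.22 ± 0.45 for HY_high minus HY_low (limma adjusted p = 1). Nfatc1, a transcription factor activated by calcium signals, had geometric means of 20.1 in HY_high, 9.78 in HY_low and 12.9 in OT1 (1.04 ± 0.48 for HY_high minus HY_low, adjusted p = 1). Sos1, a Ras activator, had 9.03, 5.58 and 3.69 in HY_high, HY_low and OT1, and Sh3bp2, an adaptor that binds Syk, had 5.07, 8.29 and 2.07. Zap70, the T cell relative of Syk, had 555 in HY_high, 705 in HY_low and 564 in OT1, a log2 difference of -0.35 for HY_high minus HY_low (adjusted p = 1).

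Inhibitors of ITAM signalling numbered 19, of which 15 were on the array and 12 tested. None passed without the block. With the block 1 fell in HY_high against HY_low, where 0.115% of all tested probe sets were lower, and 1 rose against OT1, where 1.13% were higher. The one that fell was Sit1, a transmembrane adaptor that recruits inhibitory phosphatases to the T cell receptor. It read 16.8, 4.17, 6.59 and 10.68 in HY_high, against 35.23, 17.06, 22.39 and 25.33 in HY_low and 26.57, 7.97, 18.06 and 36.23 in OT1. HY_high lay below HY_low without overlap, by -1.53 ± 0.53 on the log2 scale (adjusted p by limma 1 without the block and 0.0383 with it).

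The inhibitor that rose with the block was Ptpn22, a phosphatase that dephosphorylates Src family and Syk family kinases. Its geometric means were 152 in HY_high, 101 in HY_low and 82.0 in OT1, and HY_high minus OT1 was 0.89 ± 0.38 on the log2 scale (adjusted p by limma 1 without the block and 0.0351 with it). Inpp5d (SHIP-1), a lipid phosphatase recruited by inhibitory receptors, had 13.3, 8.76 and 6.35 in HY_high, HY_low and OT1 and did not pass. Cd72, an inhibitory receptor of B cells, had 2.30, 3.84 and 3.65, and Fcgr2b, the inhibitory IgG receptor, was at 1 in all 3 groups.

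Of 7 other transmembrane adaptors 3 were tested, Sit1 among them. Lat, the adaptor of T cells related in function to Lat2, read 12.46, 18.21, 7.43 and 9.31 in HY_high, against 13.84, 3.29, 11.2 and 13.21 in HY_low and 9.13, 17.89, 11.84 and 15.55 in OT1. The groups overlapped fully, and the log2 differences were 0.31 ± 0.51 for HY_high minus HY_low and -0.23 ± 0.51 for HY_high minus OT1 (limma adjusted p = 1 for both). Pag1, which anchors an inhibitory kinase, had geometric means of 38.5 in HY_high, 49.4 in HY_low and 49.0 in OT1, with single arrays from 7.87 to 215.88.

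**Figure D3:**
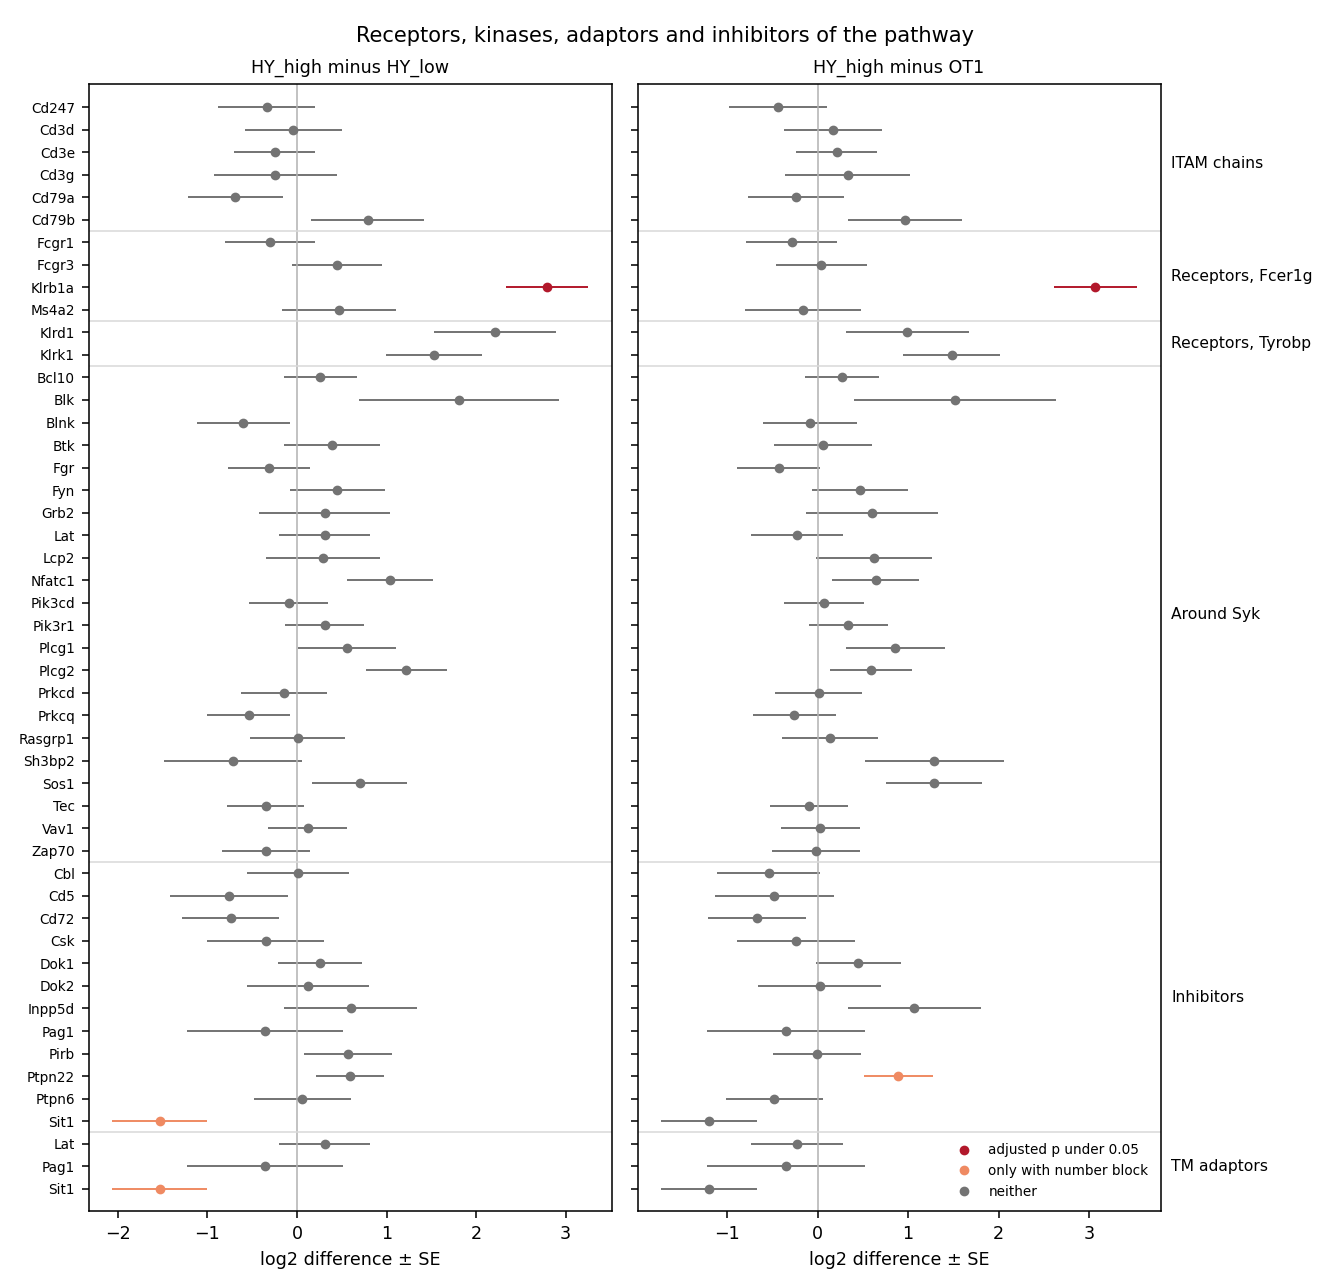
Log2 difference ± SE (n = 4 per group) of every tested gene of the 6 lists for HY_high minus HY_low and HY_high minus OT1, by role, with red for an adjusted p under 0.05 by limma and orange for one reached with the array number as a block. Klrb1a, which passed the filter only through HY_high, is the only red point in each panel, at 2.79 and 3.07, and Sit1, which stands under inhibitors and adaptors, and Ptpn22 are the orange ones.

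The coreceptor chain Cd8b1 also set HY_high apart. It read 1 to 8.26 in HY_high, 172.26 to 1373.89 in HY_low and 219.03 to 1219.49 in OT1. The other chain, Cd8a, differed less, with geometric means of 157 in HY_high, 339 in HY_low and 340 in OT1. For Cd8b1 they were 4.52, 644 and 693. Between the HY groups the Cd8b1 difference goes with peptide dose and with the letters aa and ab, which cannot be told apart. The part of Cd8b1 in the differences of Fcer1g, Tyrobp and Lat2 was not tested.

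T cell lineage markers were measured in all groups. Of 14 markers 10 were on the array and all had geometric means over 8 in each group, and their summed intensity was 1252.28 to 2448.4 in HY_high, 1582.11 to 2817.57 in HY_low and 1488.81 to 2403.82 in OT1. Of these 10, 1 was higher in HY_high than in HY_low and 4 were higher than in OT1. The median log2 differences were -0.34 and -0.23, against 0.01 and 0.02 over all tested probe sets. None of the 10 passed without the block. With it Thy1 passed as lower in HY_high than in HY_low (adjusted p by limma 1 without the block and 0.0126 with it) and than in OT1 (0.788 and 0.00564), and Cd2 as lower than in OT1 (1 and 0.0402). With the block 0.115% of all tested probe sets were lower in HY_high than in HY_low and 0.23% lower than in OT1. For NK cells 6 of 9 markers were on the array, 0 had a geometric mean over 8 in any group, and the sum was 11.7 to 17.9 in HY_high, 13.9 to 19.5 in HY_low and 14.1 to 27.2 in OT1. The NK receptor Ncr1 had geometric means of 1.09, 1.26 and 1.86, and perforin (Prf1) 3.39, 4.17 and 2.78, in the same order. Klrb1c, Klra8 and Klra4 were the markers missing. Klrb1a, Klrd1 and Klrk1, given above with their highest means in HY_high, are not part of this list.

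For macrophages and dendritic cells, 20 of 20 markers were on the array and their sum was 162 to 601 in HY_high, 162 to 635 in HY_low and 135 to 358 in OT1. Most of it came from Ctss, a lysosomal protease, with geometric means of 296 in HY_high, 234 in HY_low and 148 in OT1 (for HY_high minus OT1 adjusted p by limma 1 without the block and 0.0275 with it). Without Ctss, a choice made after its values were seen, the other 19 summed to 57.5 to 73.1, 51.5 to 84.9 and 48.3 to 70.9, and 0 of them had a geometric mean over 8 in any group. Among these 19, Cd14 was the brightest in HY_high, at 7.98 in HY_high, 5.70 in HY_low and 7.97 in OT1. Aif1 was at 1 in all groups. C1qb and Spi1 were highest in HY_high, at 4.05 and 3.57, against 2.36 and 2.21 in HY_low and 1.87 and 2.66 in OT1. H2-Aa, which was not tested, was also highest in HY_high, by 0.84 ± 0.49 over HY_low and 1.18 ± 0.49 over OT1 (log2). Csf1r was lowest in HY_high, at 3.73, against 6.28 in HY_low and 4.72 in OT1. Its HY_high arrays, at most 3.94, lay below all others, the nearest being OT1 array 3 at 3.95. Itgax (3.16, 4.05 and 4.2) and Msr1 (2.16, 3.06 and 3.04, in the same order) were also lowest in HY_high. None of these passed. Of the 15 tested markers of the whole list, Ctss included, 10 were higher in HY_high than in HY_low and 8 were higher than in OT1. The median log2 differences were 0.23 and 0.15. Apoe had 1.40 in HY_high, 5.61 in HY_low and 1.27 in OT1, and Lyz2 had 1.97, 4.57 and 1.16 in that order (adjusted p by limma 1 in each comparison). On HY_high arrays 1 to 4 the sum over all 20 was 162.28, 601.3, 499.66 and 382.91, and without Ctss it was 59.72, 73.13, 62.69 and 57.46. Array 2, highest in both sums, was also highest for both Lat2 probe sets, and array 1 was highest for Fcer1g and Tyrobp. The part of such cells in these differences was not tested.

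For mast cells and basophils the sum over 10 of 10 markers was 25 to 80.7 in HY_high, 27.0 to 42.0 in HY_low and 21.4 to 64.1 in OT1. Kit, a growth factor receptor also found on early thymocytes, had geometric means of 17.1 in HY_high, 5.76 in HY_low and 2.12 in OT1 (log2 difference 3.01 ± 0.72 for HY_high minus OT1, adjusted p by limma 0.204 without the block and 0.00731 with it). On HY_high arrays 1 to 4 Kit read 2.95, 56.62, 17.63 and 28.71, and its part in the differences was not tested. Tpsb2 went the other way, with geometric means of 3.68 in HY_high, 6.39 in HY_low and 8.03 in OT1. Of the 5 tested markers of this list, 4 were higher in HY_high than in HY_low and 2 were higher than in OT1. The median log2 differences were 0.11 and -0.16. Granulocyte markers, 8 of 8 on the array, summed to 15.8 to 26.1 in HY_high, 16 to 31.7 in HY_low and 16.4 to 28.7 in OT1. B cell markers, 8 of 9, summed to 161 to 530, 81.2 to 635 and 92.2 to 1009 in that order, most of it from Ighm. Thymic epithelium and fibroblast markers, 11 of 12, summed to 52.6 to 80.2, 55.7 to 88.2 and 49.7 to 78.7.

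**Figure D4:**
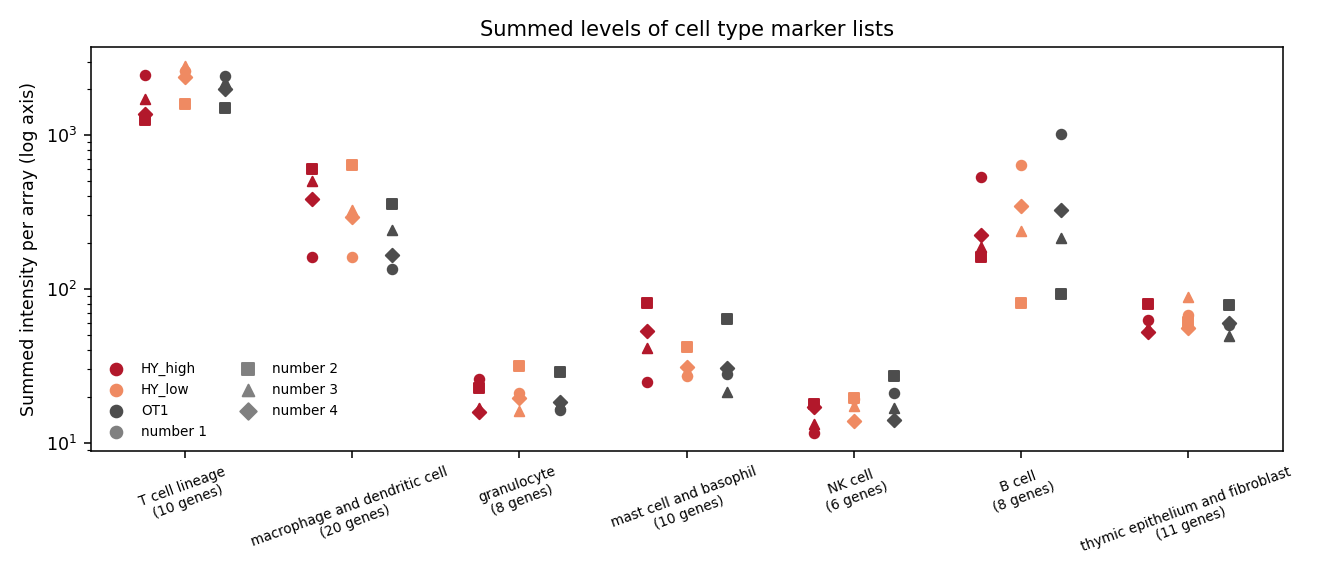
Summed deposited intensity per array (log axis) of the cell type marker lists in HY_high, HY_low and OT1, with shapes for the array number. T cell lineage sums lie at 1252 or above on every array, NK cell sums between 11.7 and 27.2, and array 2 is highest in the macrophage list and array 1 in the B cell list in all groups.

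The size of these differences moved with the treatment of dim values. For HY_high minus HY_low the log2 difference of Fcer1g was 2.62 as deposited, 0.52 with 16 added to every intensity and 0.37 with a floor of 8. For Tyrobp the values were 1.52, 0.58 and 1, and for Lat2 on 103690_at 1.56, 0.56 and 0.86. All of these are above 0. For Fcer1g and Tyrobp such changes could not bring the difference below 0, since HY_high exceeded HY_low within every array number. With the floor of 8 the value of Fcer1g came from HY_high arrays 1 and 2. A floor of 32 left 1 of the 4 genes measurable, Lat2, at 0.07, through HY_high array 2.

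**Figure D5:**
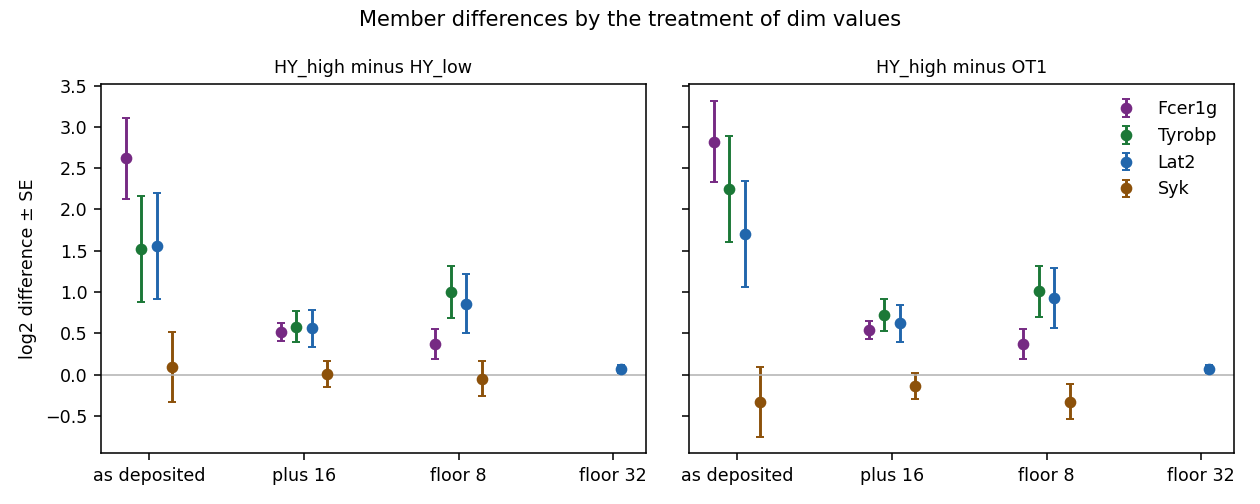
Log2 difference ± SE (n = 4 per group) of Fcer1g (162181_f_at), Tyrobp, Lat2 (103690_at) and Syk (100425_at) for HY_high minus HY_low and HY_high minus OT1, with the intensities as deposited, with 16 added, and with values below 8 or 32 raised to that floor. With 16 added and with a floor of 8 the differences of the 3 adaptors shrink and stay above 0. That of Fcer1g in HY_high minus HY_low falls to 0.37 at a floor of 8, against 2.62 as deposited. At a floor of 32 only Lat2 has a value, 0.07 in both comparisons.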

How the data were processed

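RNA of RTOC thymocytes was measured on 12 arrays, 4 in each of 3 groups taken from the sample titles and descriptions. The authors deposited linear intensities for 12488 probe sets in 1 table. Their background correction, summary and scaling steps are not given in the sources consulted. Arrays were used without further scaling.

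Control probe sets (66) were left out, and log2 of the deposited intensity was fitted with limma 3.58.1 in R 4.3.3, with 1 mean per group, 9 residual degrees of freedom and a variance trend. Probe sets with a mean above the 30th percentile (intensity 1.76) were tested, 8695 in all, two-sided, with Benjamini-Hochberg adjustment over all of them at 0.05. The fit was tested on simulated data. Symbols come from the platform annotation, updated by gene ID. Of 12422 probe sets 10833 had 1 symbol, 396 several and 1193 none, and a gene outside the described 4 is given by its brightest single-symbol probe set.

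The same numbers, 1 to 4, recur in each group. Deviations from group means correlated at 0.341 to 0.593 in the 12 pairs of equal number and at -0.401 to 0.163 in the 36 other pairs, so the numbers pair the arrays. This comes from the data, since no label states it. The fit with the number as a block has 6 residual degrees of freedom. Every SE given with a difference comes from the fit without the block. With the block the differences of the described genes were the same. Their SEs were then 0.4 for Fcer1g (162181_f_at), 0.44 for Tyrobp and 0.31 for Syk (100425_at). For Lat2 they were 0.53 on 103690_at and 0.51 on 161899_f_at.

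The 4 genes, the 6 pathway lists, the 7 marker lists and the rule for named genes were chosen with earlier results of these data known. The rule names all probe sets of the 4 genes, the 5 probe sets most correlated with each, and from each pathway list the genes called with or without the block plus the 4 with the smallest p in a comparison with HY_high. Zap70, Fcer1a, Fcgr2b and the cell type markers named were picked to describe a list after their values were seen. Alternatives were quantile normalization, scaling to one median, floors of 8 and 32, adding 16, the block, array weights, no filter, no variance trend, other probe sets, and leaving out each array.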

Additional observations from a re-analysis of the deposited data

Results flagged for a closer look

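On OT1 array 1 the Fcer1g probe set 162181_f_at read 1.85, against 1.02, 1 and 1 on the other OT1 arrays, which stands apart by its gap to the nearest array relative to the range of the group on the log2 scale. All 4 values are near the lowest value of the table. Of all values, 8.5% were at the lowest value on OT1 array 1, against 19.04%, 21.28% and 20.79% on OT1 arrays 2, 3 and 4. Of 18 groups of 4 arrays examined (3 groups of each of the probe sets that vary), this was the only one that stood apart. Chance marks about 1 in 20 of normally distributed groups, a rate that does not hold where values sit at the lowest value.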

How the results depend on the processing

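With intensities under 8 set to 8, the log2 difference of Fcer1g was 0.37 for HY_high minus HY_low and 0.37 for HY_high minus OT1, and that of Tyrobp was 1.01 for HY_high minus OT1. With a floor of 32, Lat2 had 0.07 in both comparisons. With 16 added, Fcer1g had 0.52 and 0.54, and for HY_high minus OT1 Tyrobp had 0.72 and Lat2 0.62. The other probe sets gave 0.03 and -0.24 for Fcer1g, 2.99 for Lat2 in HY_high minus OT1, and 0 for Syk in HY_low minus OT1, where that probe set is at the lowest value on all arrays. A floor of 32 gave no value for Fcer1g, Tyrobp, Syk and Klrb1a, which lie below it on all arrays. The differences shrink by construction where dim values are raised. For the differences of these genes, leaving out 1 array, quantile normalization, scaling to one median, array weights and the block each moved them by less than the spread between replicates.

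The 1 call among receptors of Fcer1g, Klrb1a, was lost (0 calls) for HY_high minus HY_low with scaling to one median, floors of 8 and 32 and no filter, and ranged from 0 to 1 with 1 array left out. For HY_high minus OT1 it was lost (0 calls) with the floors. The replicate block gave 1 call each for inhibitors in HY_high minus HY_low and HY_high minus OT1 and for adaptors in HY_high minus HY_low. It changed no other call of the pathway lists. Probe sets called for HY_high minus HY_low were 2, but 1 with scaling to one median, 4 with a floor of 8, 6 with 16 added, 30 with the replicate block, 7 with array weights, 0 with no filter, and 1 to 4 with 1 array left out. For HY_low minus OT1 they were 2, but 1 with a floor of 32, 8 with the replicate block and 4 with array weights. For HY_high minus OT1 they were 15, but 8 and 5 with the floors of 8 and 32, 118 with the replicate block, 64 with array weights, 9 with no filter, and 6 to 17 with 1 array left out. The cause of these shifts was not tested.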
